A study of Mus musculus with 4 samples.

Results

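A set of 9 genes of antigen presentation by MHC class II was followed through the leukocytes of YUMMER1.7 mouse melanomas: H2-Aa, H2-Ab1 and H2-Eb1, which encode chains of the class II molecules themselves, H2-DMa, H2-DMb1 and H2-DMb2, which encode the chains of the peptide editor H2-DM, H2-Oa and H2-Ob, which encode its inhibitor H2-O, and Ciita, the transactivator of the class II genes. They were found by symbol among the 32285 genes of the deposited matrices and were read as unique molecular identifiers (UMIs, 1 per captured RNA molecule) in 6 groups of cells set apart by other genes: T cells by Cd3e, B cells by Cd79a, plasmacytoid dendritic cells (pDC) by Siglech, mature dendritic cells (mature DC) by Ccr7 together with Fscn1, type 1 conventional dendritic cells (cDC1) by Xcr1 or Clec9a, and monocytes and macrophages by at least 5 UMIs of Lyz2 together with Ly6c2 or C1qb. A cell that met more than one of these rules was left out of all of them.

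The study asked what blocking the cytokine MIF adds to blocking PD-1 in this melanoma. Wild-type male C57BL/6J mice carried subcutaneous YUMMER1.7 tumors, a mouse melanoma cell line, and received an isotype control antibody, anti-PD-1, anti-MIF or both antibodies (anti-PD-1/anti-MIF). In the long cohort the mice had 4 doses over 2 weeks and tumors were taken at day 21, and in the short cohort they had 2 doses over 1 week and tumors were taken at day 14. All mice of a cohort shared 1 gene expression library with an antibody hashtag for each treatment, so there were 8 arms (4 per cohort) with 1 hashtagged sample each. How many mice stood behind a hashtag is not given in the sources used here, and p-values over arms measure only the spread between these samples. The 2 cohorts are also 2 libraries, so time under treatment and library cannot be told apart. Sorted CD45+ and CD45- cells had been recombined to enrich leukocytes, so shares of cells do not describe the tumors as a whole.

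After filtering, 4790 cells carried 1 of the 4 hashtags named in the labels, 1671 in the long cohort with a median of 8242 UMIs per cell and 3119 in the short cohort with a median of 5835. Exactly 1 rule was met by 3144 cells, none by 1520 and more than one by 126. The gates held 2257 monocytes and macrophages, 572 T cells, 132 mature DC, 88 cDC1, 53 pDC and 42 B cells, with median UMIs per cell of 7944, 4426, 7948.5, 11209.5, 6298 and 2760. The libraries had 20 cell barcodes in common, of which 12 were among the kept cells. Levels are given in CPM, a gene's UMIs scaled to all UMIs of an arm's gated cells, for arms with at least 5 such cells. That left 8 arms for monocytes and macrophages, T cells and mature DC, 7 for cDC1, 6 for pDC and only 3 for B cells (8, 10 and 22 cells).

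The class II molecule is a pair of an alpha and a beta chain that is assembled in the endoplasmic reticulum with the invariant chain (Cd74) and carried to endosomes, where cathepsins cut the invariant chain down to a fragment left in the groove. H2-DM exchanges that fragment for antigen peptides, and H2-O binds H2-DM and holds it back. CIITA does not bind DNA itself but sits on factors bound to the X and Y boxes upstream of these genes, and interferon-gamma induces it in macrophages. H2-O is known mainly from B cells and some dendritic cells, and dendritic cells that mature shut down new class II synthesis while keeping the molecules already at their surface.

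In all, 8 of the genes lie within 224.3 kb of mouse chromosome 17 (GRCm38/mm10, GENCODE annotation): H2-Oa at chr17:34092340-34095234, H2-DMa at chr17:34119541-34139101, H2-DMb2 at chr17:34143307-34151555, H2-DMb1 at chr17:34153072-34160230, H2-Ob at chr17:34238903-34254414, H2-Ab1 at chr17:34257689-34269419, H2-Aa at chr17:34282744-34287823 on the minus strand and H2-Eb1 at chr17:34305867-34316674. Ciita lies apart, at chr16:10480059-10528418. The upstream windows below are shown because the genes that share CIITA did not share 1 pattern across the gates. They come from RefSeq promoters (GRCm38.p6), each read 5′ to 3′ on its gene's strand, and each runs from the first X box part to the end of the Y box. Capitals mark the searched letters, GCAAC or TGATG as parts of the X box and GATTGG as the Y box.
H2-Aa, chr17:34287867-34287904, minus strand: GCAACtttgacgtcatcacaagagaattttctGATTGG
H2-Eb1, chr17:34305776-34305812, plus strand: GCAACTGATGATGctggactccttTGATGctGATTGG
H2-DMb1, chr17:34153105-34153134, plus strand: TGATGctaggctgattcactcagtGATTGG
H2-DMb2, chr17:34145134-34145163, plus strand: TGATGctaggctaagtcacttagtGATTGG
H2-Oa, chr17:34092303-34092340, plus strand: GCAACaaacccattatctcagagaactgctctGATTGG
H2-Ob, chr17:34238818-34238852, plus strand: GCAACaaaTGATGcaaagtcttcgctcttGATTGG
H2-Eb2, chr17:34325543-34325579, plus strand: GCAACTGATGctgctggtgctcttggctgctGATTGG

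Both strands of the 250 bases before each start were searched for an X part at most 40 bases before a Y box, counting overlapping matches. Of the 7 members with a promoter in the table, 6 held such a pair, against 408 of 32851 promoters (1.24%). GCAAC with a Y box was found in 0.551% of promoters, TGATG with a Y box in 0.731%, and a Y box in any position in 14.6%. H2-DMa, with 2 promoters in the table, held no pair of these letters, and H2-Ab1 and Ciita had no entry. The windows of H2-DMb1 and H2-DMb2, neighbors that each encode an H2-DM beta chain, are alike in length and spacing, and 174 of 291 aligned columns (59.8%) of their 250 upstream bases were identical. The windows lie outside annotated exons except that of H2-DMb1, which lies in an exon of a longer gene model, and the last base of that of H2-Oa. The match of letters is a description and no site of binding. Because H2-DMb1 and H2-DMb2 are related in sequence and the rule for reads that fit both is not given in the sources used here, their split is less certain than that of the other genes.

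The gates carried the markers of their names. Of 7 further markers of each type, all 7 were highest in their own gate for B cells, pDC, mature DC and monocytes and macrophages, and 6 of 7 for T cells and cDC1. Summed B cell markers came to 7547 CPM in the B cell gate and 4.42 CPM in mature DC, where 4 of the 7 were at 0. The lists of other dendritic cells were higher in mature DC, with the pDC list at 360.1 CPM (Bst2 218.5 CPM, 3 of 7 at 0), the cDC1 list at 308.8 CPM (Batf3 270.7 CPM, 2 of 7 at 0) and the 5 cDC2 markers at 170.8 CPM (Cd1d1 138 CPM, 1 at 0). Monocytes and macrophages had the pDC list at 636 CPM, of which Bst2 made 500.1 CPM. In pDC the B cell list reached 765 CPM, of which Ighm made 582 CPM, and the T cell list 336 CPM, of which Cd8a made 229 CPM. The cDC2 list was higher in pDC than in any other gate, at 707 CPM (Clec10a 374 CPM, Cd209a 156 CPM). Also in pDC, the monocyte and macrophage list came to 376 CPM (Cd68 301 CPM) and the endothelial list to 278 CPM. The monocyte and macrophage list came to 2433 CPM in its own gate, 637 CPM in cDC1 and 25.7 CPM in mature DC. These sums are pooled over arms. The 5 melanoma markers did not exceed 2 CPM in any gate when pooled, but reached 19.1 CPM in mature DC of the short anti-PD-1/anti-MIF arm. The part of other cells in the values below was not tested beyond these sums.

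**Figure D1:**
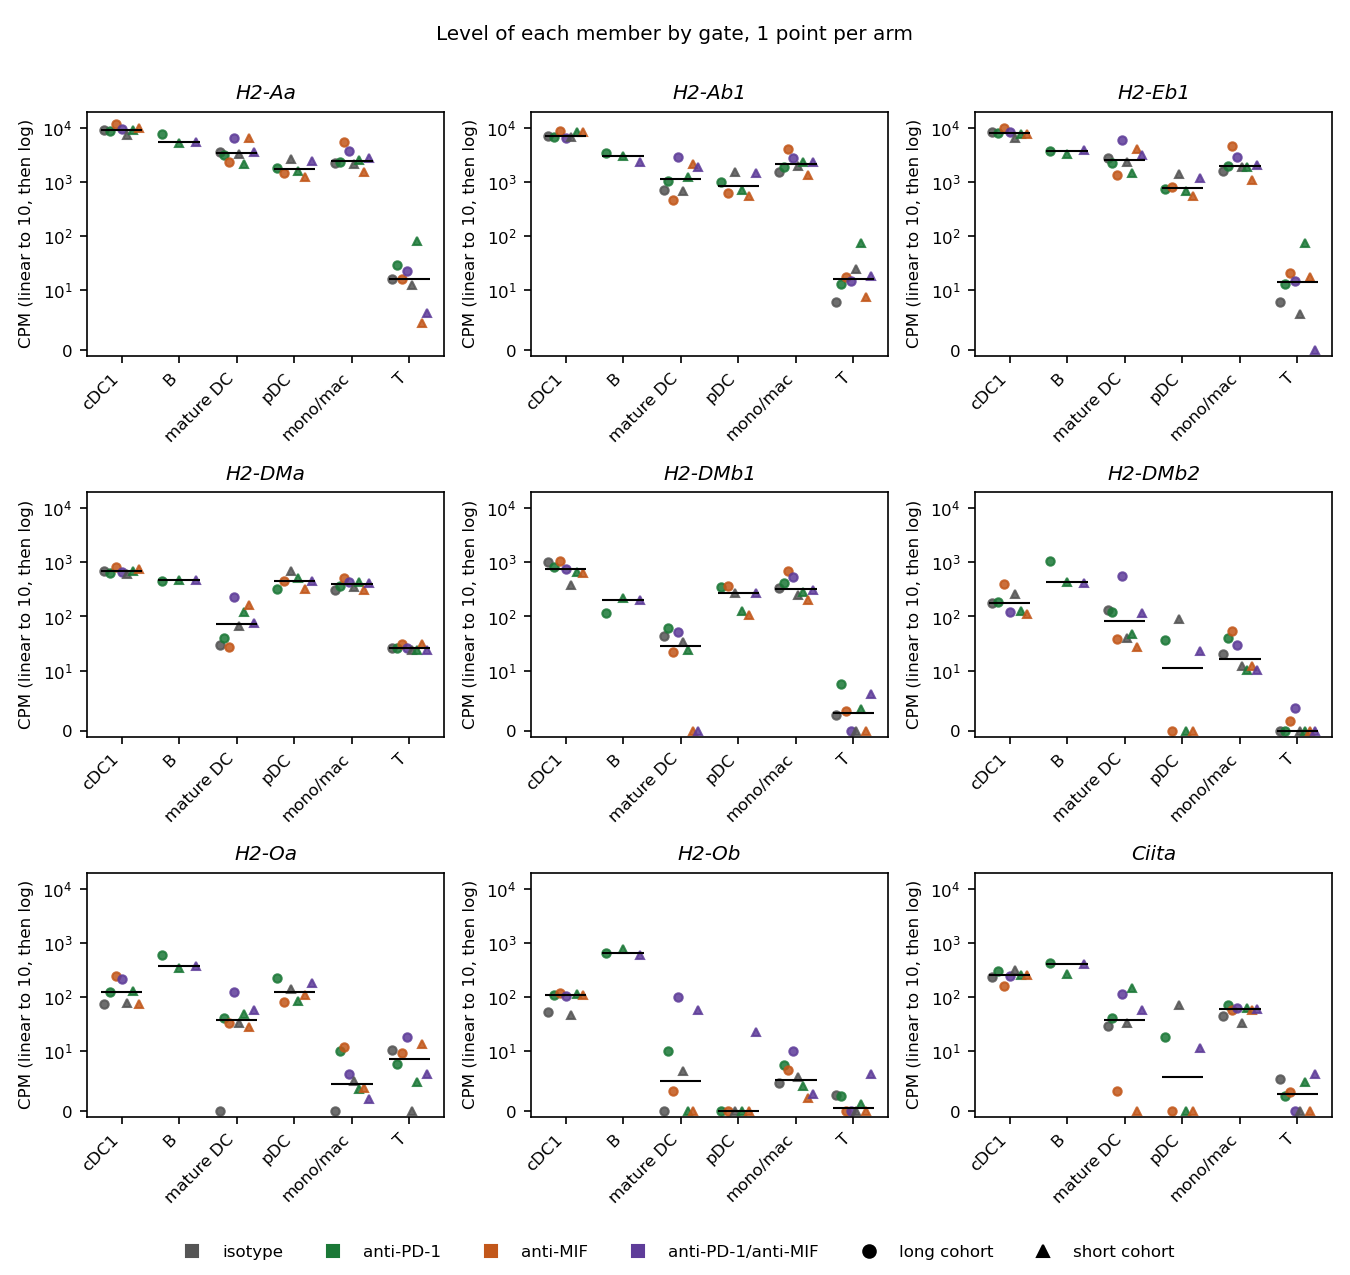
Level of each of the 9 genes (CPM, on an axis that is linear up to 10 and logarithmic above) in the 6 gated lineages, 1 point per arm with at least 5 cells, colored by treatment, with a bar at the median. The class II chains were highest in cDC1, H2-DMb2, H2-Oa, H2-Ob and Ciita had their highest median in B cells, and T cells lay lowest for the class II and H2-DM genes.

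The class II chain genes were highest in cDC1 and were measured in every gate. H2-Aa had a median of 9184 CPM in cDC1 (7266 to 11586 over 7 arms), 5384 in B cells (5265 to 7677 over 3 arms), 3438 in mature DC (2104 to 6603), 2444 in monocytes and macrophages (1531 to 5432), 1720 in pDC (1238 to 2607) and 16 in T cells (4.44 to 79.9). Neighbors in this order overlapped in range down to pDC, and T cells lay below all other gates. The cDC1 range overlapped only with that of B cells. H2-Eb1 followed the same order, from 8000 CPM in cDC1 (6550 to 10101) through 3725 in B cells, 2541 in mature DC, 1930 in monocytes and macrophages and 780 in pDC to 13.9 in T cells, and here cDC1 did not overlap with B cells. For H2-Ab1 mature DC changed places: the medians were 6988 CPM in cDC1 (6557 to 8854), 2959 in B cells, 2156 in monocytes and macrophages (1315 to 4099), 1151 in mature DC (463 to 2899), 850 in pDC and 16.3 in T cells. The cDC1 range lay wholly above that of B cells, and the lower gates overlapped down to pDC.

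T cells of the mouse do not make class II, so their gate was used as the reference for class II chain RNA carried over from other cells. After each cell was thinned to 2000 UMIs, H2-Aa was found in 3.76% of 505 T cells (95% exact binomial interval 2.28 to 5.81), against 96.6% of 88 cDC1, 78.9% of 128 mature DC, 76.0% of 50 pDC, all of 32 B cells and 51.7% of 2230 monocytes and macrophages. Without thinning the shares, in the same order, were 7.52%, 97.7%, 93.2%, 79.2%, 97.6% and 59.0%. One T-gated cell of the short anti-PD-1 arm held 54 of the 103 H2-Aa UMIs, 54 of the 94 H2-Ab1 UMIs and 57 of the 91 H2-Eb1 UMIs of the gate. Intervals of this kind cover counting error only. H2-DMa lay at 24.2 to 31.1 CPM in all 8 arms of the T cell gate, from 81 UMIs spread over 66 cells. Per 100 class II UMIs that was a median of 56.5 H2-DMa UMIs, against 5.82 in monocytes and macrophages, so the gate gives no such reference for H2-DMa, nor for H2-O, at 32.3 UMIs per 100 of H2-DM against 1.36.

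The H2-DM genes H2-DMa and H2-DMb1 were carried by cDC1, B cells, pDC and monocytes and macrophages and stood far lower in mature DC. H2-DMa, the alpha chain, had a median of 690 CPM in cDC1 (622 to 821), 463 in B cells, 446 in pDC, 395 in monocytes and macrophages (308 to 518) and 71.3 in mature DC (27.4 to 233). The mature DC range lay below all of these and overlapped only with that of T cells. H2-DMb1, the common beta chain, was also highest in cDC1, with 751 CPM in cDC1 (389 to 1069), 319 in monocytes and macrophages (203 to 686), 270 in pDC, 201 in B cells and 28.5 in mature DC, where 2 of 8 arms had no UMI. H2-DMb2, the second beta chain, had another order: 435 CPM in B cells (417 to 1064), 181 in cDC1 (109 to 400), 81.1 in mature DC (27.6 to 558), 16.4 in monocytes and macrophages (10.2 to 54.8), 11.4 in pDC and 0 in T cells. B cells did not overlap with cDC1 for this gene.

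H2-O was most abundant in B cells, and its 2 chains parted in pDC. H2-Oa had a median of 370 CPM in B cells (348 to 608), 125 in pDC (81.7 to 223), 123 in cDC1 (73.0 to 243), 36.9 in mature DC (0 to 122), 8.74 in T cells and 4.46 in monocytes and macrophages. The ranges of the last 2 overlapped. H2-Ob had 646 CPM in B cells (586 to 783), 109 in cDC1 (46.7 to 119), 5.21 in monocytes and macrophages, 5.03 in mature DC (0 to 101), 0.606 in T cells and a median of 0 in pDC, where 5 of 6 arms had none. All 53 pDC held 4 H2-Ob UMIs and 55 H2-Oa UMIs. H2-Ob made 61.4% of all H2-O UMIs in B cells, 46.1% in monocytes and macrophages, 39.9% in cDC1, 27.0% in mature DC and 6.78% in pDC.

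Ciita had a median of 401 CPM in B cells (261 to 418), 252 in cDC1 (162 to 311), 58.9 in monocytes and macrophages (33.6 to 70.0), 36.9 in mature DC (0 to 143), 5.69 in pDC and 2.91 in T cells. B cells and cDC1 overlapped, and both lay above all other gates. In pDC, 3 of 6 arms had no Ciita UMI, and the 53 cells held 11 in all. Thinned to 2000 UMIs, 40.6% of B cells, 33.0% of cDC1, 9.10% of monocytes and macrophages, 7.81% of mature DC, 6% of pDC and 0.396% of T cells had a Ciita UMI.

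Monocytes and macrophages, 57.8% of the kept cells' UMIs, were the main source of class II RNA in these libraries, with 55.6% of H2-Aa and 58.1% of H2-Ab1 UMIs, but they held only 28.1% of H2-DMb2, 12.4% of H2-Oa and 20.2% of H2-Ob UMIs. Cells outside every gate held between 19.6% and 45.6% of the UMIs of each member.

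All 9 genes were higher in cDC1 than in monocytes and macrophages, H2-Oa and H2-Ob as descriptions only. Of 5559 tested genes, 32.4% differed in either direction (edgeR, adjusted p below 0.05, with the arm as a block). The log2 fold change was 1.65 ± 0.30 (SE) for H2-Aa, 1.70 ± 0.31 for H2-Ab1, 1.82 ± 0.32 for H2-Eb1, 0.74 ± 0.18 for H2-DMa and 0.94 ± 0.18 for H2-DMb1. It was larger for H2-DMb2 at 2.90 ± 0.38, H2-Oa at 4.44 ± 0.28, H2-Ob at 4.01 ± 0.35 and Ciita at 2.02 ± 0.23. H2-Oa and H2-Ob had medians of only 4.46 and 5.21 CPM in monocytes and macrophages. Both may have passed the filter on low counts through gates where they were high. Their calls against this gate, here and below, are therefore given as descriptions and not as tests. The median over the 9 members, H2-Oa and H2-Ob included, was 1.82, against -0.05 over all tested genes. When cells meeting more than one rule were counted in each, H2-DMa and H2-DMb1 no longer passed.

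Mature DC had far less H2-DMa and H2-DMb1 RNA than the other myeloid cells and dendritic cells. Against monocytes and macrophages, where 56.7% of the tested genes differed, 3 members were lower and 3 higher, H2-Oa and H2-Ob being among the latter as descriptions only. H2-DMb1 was lower by a log2 fold change of -3.77 ± 0.28 (adjusted p = 1.3e-17) and H2-DMa by -2.47 ± 0.24 (adjusted p = 3.0e-13), and H2-Ab1 by -0.96 ± 0.32 (adjusted p = 0.012). H2-DMb2 was higher by 2.13 ± 0.45, H2-Oa by 2.63 ± 0.38 and H2-Ob by 1.5 ± 0.54, while H2-Aa (0.35 ± 0.29), H2-Eb1 (0.26 ± 0.31) and Ciita (-0.66 ± 0.35) did not pass. The values of H2-Oa and H2-Ob are again descriptions. The members' median was 0.26, against -0.18 over all tested genes. The calls on H2-DMb1 and H2-DMa held under every alternative tried, whereas with sums of at least 10 cells neither H2-DMb2 nor H2-Ob passed and H2-Ob was at -0.31 ± 0.73. Of the 17 H2-Ob UMIs in mature DC, 7 came from 1 cell of the long anti-PD-1/anti-MIF arm, and that arm's 9 cells also held 55 of the 113 H2-DMb2 UMIs.

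Against cDC1, mature DC were lower in 8 members and higher in none, where 46.4% of tested genes differed. H2-Oa and H2-Ob are among the 8 as descriptions and not as tests, with 46 and 17 UMIs in all mature DC. Both may have passed the filter on low counts through gates where they were high. H2-DMb1 was at -4.71 ± 0.28, H2-DMa at -3.20 ± 0.25, Ciita at -2.68 ± 0.35, H2-Ab1 at -2.66 ± 0.34, H2-Ob at -2.51 ± 0.47, H2-Oa at -1.81 ± 0.33, H2-Eb1 at -1.57 ± 0.33 and H2-Aa at -1.30 ± 0.30. H2-DMb2 was the exception at -0.77 ± 0.45 (adjusted p = 0.17). The median over all members, H2-Oa and H2-Ob included, was -2.51, against -0.14 over all tested genes. The low values were also low in the share of cells: 9.38% of thinned mature DC had an H2-DMa UMI and 4.69% an H2-DMb1 UMI, against 65.9% and 69.3% of cDC1 and 4.16% and 0.396% of T cells.

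pDC had far more H2-Oa than monocytes and macrophages, while the lower values of the class II chains depended on the processing. H2-Oa was higher than in monocytes and macrophages at 4.31 ± 0.41, a description from medians of 125 and 4.46 CPM. Against the same gate, where 38.9% of tested genes differed, 5 members were lower, namely Ciita at -1.81 ± 0.63, H2-Eb1 at -1.57 ± 0.38, H2-Ab1 at -1.54 ± 0.38, H2-Aa at -0.89 ± 0.34 and H2-DMb1 at -0.76 ± 0.24. H2-DMa was at -0.15 ± 0.22, and the values of H2-DMb2 (0.23 ± 0.96) and H2-Ob (-0.02 ± 1.31) were too imprecise to place. The members' median was -0.76, against -0.21 over all tested genes. The number of lower members depended on the scaling and on the depth of the cells: it was 2 with size factors from gene ratios (RLE), 1 after thinning and 0 with sums of at least 10 cells. The split of all calls also moved, from 845 higher and 1316 lower to 1121 and 1006 with RLE.

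In B cells H2-DMb2 and Ciita were called higher than in monocytes and macrophages, and no class II chain passed over the 3 arms. Against monocytes and macrophages, where 32.1% of tested genes differed, H2-Ob was higher at 6.42 ± 0.47, H2-Oa at 5.95 ± 0.45, H2-DMb2 at 4.78 ± 0.61 and Ciita at 2.20 ± 0.42. The values of H2-Ob and H2-Oa are descriptions, from medians of 646 and 370 CPM in B cells against 5.21 and 4.46 CPM. H2-Aa (0.82 ± 0.41), H2-Eb1 (0.45 ± 0.45), H2-Ab1 (-0.10 ± 0.46) and H2-DMa (-0.04 ± 0.32) did not pass, which over so few arms does not show equal levels. The medians of H2-Aa, H2-Eb1 and H2-Ab1 were 5384, 3725 and 2959 CPM in B cells. In monocytes and macrophages they were 2444, 1930 and 2156 CPM. H2-DMb1 was lower at -1.24 ± 0.38, a call that was lost without the long anti-PD-1 arm and with other scalings. The members' median was 0.82, against -0.52 over all tested genes, and with RLE size factors the median of all genes was -0.18 and the calls moved from 563 higher and 1221 lower to 761 and 894. In T cells 8 members, H2-Ob among them as a description, were lower than in monocytes and macrophages, where 63.6% of tested genes differed. H2-DMb1 was at -6.88 ± 0.30 and the class II chains lay between -6.63 and -6.46. H2-Oa was at 0.48 ± 0.40 there. The median over members was -4.91, against 0.03.

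**Figure D2:**
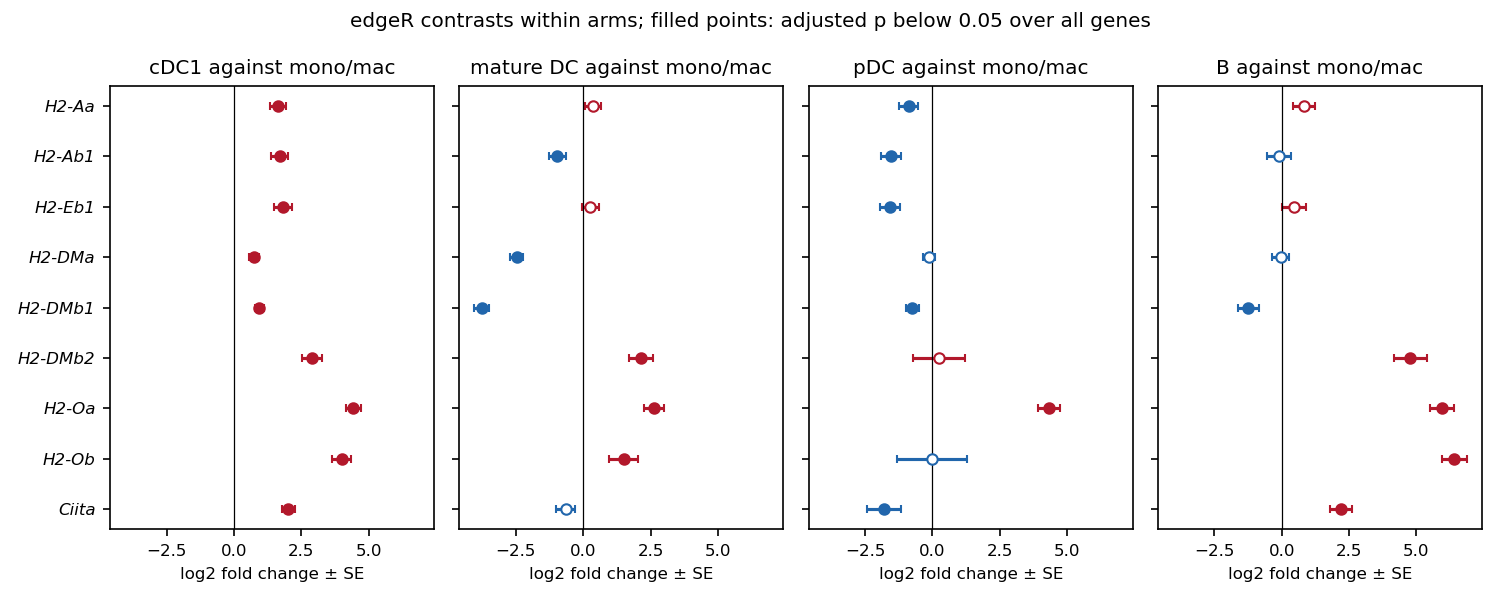
Log2 fold change with SE of the 9 genes for cDC1, mature DC, pDC and B cells, each against monocytes and macrophages, filled where the adjusted p passed 0.05 and open otherwise. The points of H2-Oa and H2-Ob are descriptions. All points of cDC1 against monocytes and macrophages lie to the right of 0, and those of mature DC split, with H2-DMa and H2-DMb1 far to the left.

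A pair of ratios within the same cells, which need no scaling between libraries, set these genes against each other. H2-DMb2 made 113 of 146 H2-DMb UMIs in mature DC (77.4%, 95% exact binomial interval 69.7 to 83.9) and 70 of 92 in B cells (76.1%, 66.1 to 84.4), but 209 of 1053 in cDC1 (19.8%, 17.5 to 22.4) and 506 of 8489 in monocytes and macrophages (5.96%, 5.47 to 6.49). Among arms with at least 20 H2-DMb UMIs, monocytes and macrophages lay at or below 8.81% and cDC1 at or above 13.8%, while the short anti-PD-1/anti-MIF arm, with 4 cDC1 and 7 such UMIs, had none of H2-DMb2. Over the 7 arms that could be paired the share was 20.8% in cDC1 and 5.87% in monocytes and macrophages, a difference of 14.9 ± 10.1 percentage points (SD), higher in 7 of 7 arms (exact permutation p = 0.0156, the smallest that 7 arms allow; adjusted over the 5 pairs of gates compared, p = 0.078). With a Lyz2 floor of 1 UMI the difference was 7.61 ± 8.84 points, higher in 5 of 6 arms (exact permutation p = 0.094), and after thinning 12.2 ± 14.9 points, higher in 3 of 4 arms (exact permutation p = 0.375). Mature DC and B cells each had 2 arms with the 20 UMIs required, where both arms were higher and p could not fall below 0.5. In pDC 51 of 152 UMIs were H2-DMb2 (33.6%), and 42 of these came from 1 of the 2 pDC of the long anti-PD-1/anti-MIF arm, so that 9 remained without it.

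H2-O per 100 H2-DM UMIs was 84.7 in B cells, 29.2 in mature DC, 17.7 in pDC, 15.0 in cDC1 and 1.36 in monocytes and macrophages. Over the arms with at least 20 H2-DM UMIs it ran from 76.7 to 100 in B cells, from 22.7 to 41.2 in mature DC, from 9.38 to 31.6 in pDC, from 6.74 to 20.9 in cDC1 and from 0.659 to 2.18 in monocytes and macrophages. Among these arms no other gate named here overlapped with monocytes and macrophages, but the long isotype arm, with 14 H2-DM UMIs in mature DC, had no H2-O there. On the log2 scale the ratio was higher in cDC1 by 3.24 ± 0.50 (SD, 7 of 7 arms, exact permutation p = 0.0156, adjusted p = 0.078), in pDC by 3.53 ± 1.11 (5 of 5 arms, exact permutation p = 0.0625, adjusted p = 0.156), in mature DC by 4.09 ± 0.57 (4 of 4 arms, exact permutation p = 0.125, adjusted p = 0.156) and in B cells by 6.20 ± 0.98 (3 of 3 arms, exact permutation p = 0.25). Each p was the smallest its number of arms allowed, and none passed after adjustment over the 5 pairs. In mature DC the ratio was above that of cDC1 by 1.01 ± 0.56 in 4 of 4 arms (exact permutation p = 0.125, the smallest possible). The T cell gate gave 32.3, from 30 H2-O and 93 H2-DM UMIs.

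**Figure D3:**
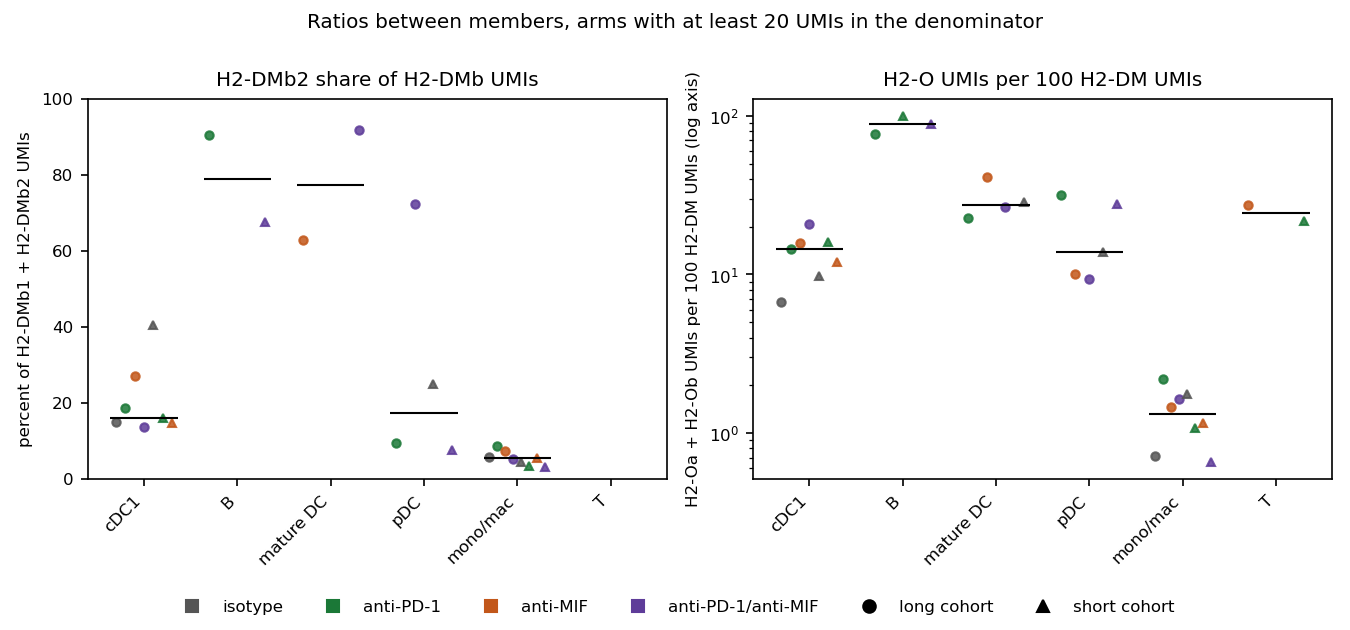
H2-DMb2 as a percentage of H2-DMb UMIs, and H2-O UMIs per 100 H2-DM UMIs, 1 point per arm with at least 20 UMIs below the fraction line, with a bar at the median. Monocytes and macrophages have the lowest median in both, with arms at 3.29 to 8.81% and 0.659 to 2.18, and the pDC point at 72.4% is an arm of 2 cells.

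Mature DC also had an uneven set of class II chains, a description chosen after the values were seen. H2-Ab1 UMIs per 100 H2-Aa UMIs had a median of 32.6 in mature DC (19.5 to 59.1), 45.05 in B cells, 49.1 in pDC, 78.2 in cDC1 (69.3 to 93.6) and 83.4 in monocytes and macrophages (68.0 to 92.6). The mature DC range lay below both of the latter. H2-DM UMIs per 100 UMIs of the 3 class II chains were 2.60 in mature DC (1.51 to 5.45), 6.31 in cDC1 (5.79 to 7.68), 9.85 in B cells, 10.8 in monocytes and macrophages (8.90 to 13.3) and 19.3 in pDC (14.6 to 27.97).

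The partners of class II were read from a list of 25 genes, and in mature DC they moved in both directions. Of 7 tested genes of loading and turnover, 2 were higher and 4 lower than in monocytes and macrophages. Cd83, a maturation marker that holds class II at the surface, was higher at 3.21 ± 0.26, with a median of 1452 CPM (1160 to 2032) against 129, and Ifi30, a thiol reductase of the endosome, at 0.86 ± 0.16. Ctss, the cathepsin that cuts the invariant chain, was lower at -1.87 ± 0.16. March1, a ubiquitin ligase that removes class II from the surface, had no UMI among the 1130251 of the 132 mature DC, against 104 CPM in monocytes and macrophages and 192 CPM in cDC1. Set against a floor of 3 UMIs over the group, it was at least 39.3-fold lower than in the former and 72.3-fold lower than in the latter. Cd74, the invariant chain, was at -0.12 ± 0.27 and did not pass, but it was lower than in cDC1 at -1.43 ± 0.28.

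In cDC1 3 of the 7 loading and turnover genes were higher than in monocytes and macrophages and 3 lower, with Cd74 at 1.30 ± 0.28, Cd83 at 1.41 ± 0.27, March1 at 0.75 ± 0.20 and Ctss at -1.35 ± 0.17. In pDC 1 was higher and 6 lower, and in B cells 2 were higher and 4 lower. Of 3 tested subunits of the factors on the X and Y boxes, 2 were higher and 1 lower in mature DC, 1 was lower in pDC, and none passed in cDC1 or B cells. Rfx5, the X box subunit that gives its name to the RFX complex, was too low to be tested between lineages. Of 9 genes upstream of Ciita, 4 were higher and 3 lower in mature DC, 2 and 1 in cDC1, 2 and 4 in pDC and 2 and 5 in B cells, where 56.7%, 32.4%, 38.9% and 32.1% of all tested genes were called.

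H2-Eb2, a further class II beta chain gene next to H2-Eb1, was found in mature DC and B cells and hardly elsewhere. It had a median of 97.4 CPM in mature DC (71.3 to 284, 132 UMIs) and 76.0 in B cells (43.5 to 185, 19 UMIs). Monocytes and macrophages had 0.996 CPM (0.201 to 2.55), and cDC1, pDC and T cells had 3, 1 and 1 UMIs. The arms of mature DC and of monocytes and macrophages did not overlap, and no test is given, since the gene passed the filter on low counts through the gates where it was high. H2-Eb2 thus had its highest levels in the 2 gates with the highest H2-DMb2 share.

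**Figure D4:**
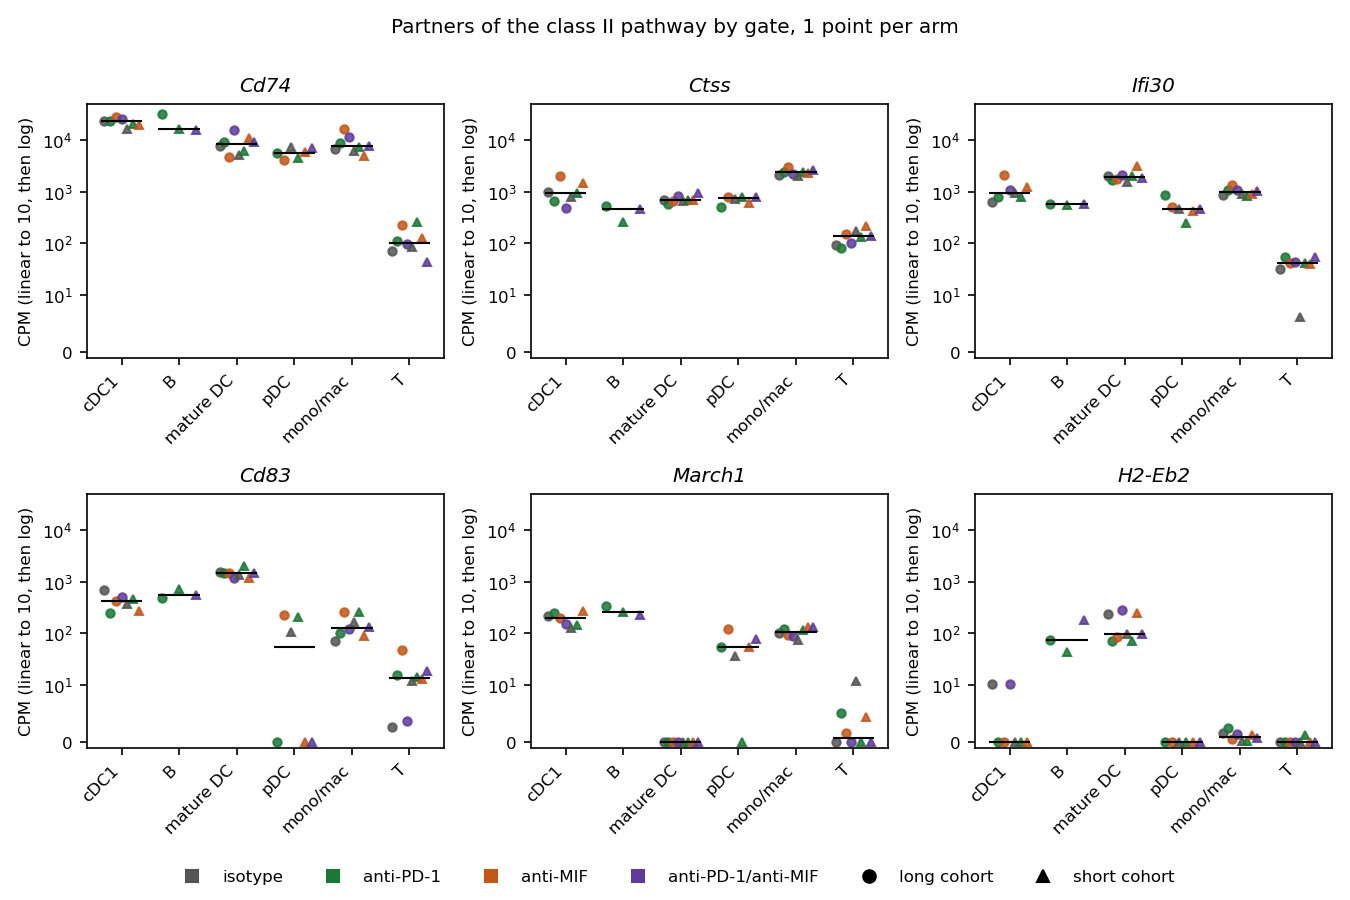
Levels (CPM, on an axis that is linear up to 10 and logarithmic above) of Cd74, Ctss, Ifi30, Cd83, March1 and H2-Eb2 by lineage, 1 point per arm with at least 5 cells and a bar at the median. Mature DC stand highest for Cd83 (1160 to 2032 CPM) and have no March1 UMI.

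Across all 40 sums of an arm and a lineage, the members did not vary as 1 group. The points share libraries and depth, so the following Pearson correlations of log2(CPM + 1) are descriptions. H2-Aa went with H2-Eb1 at 0.98 and H2-Ab1 at 0.97, H2-DMa with H2-DMb1 at 0.86 and Ciita with H2-DMb2 at 0.85 and with H2-Ob at 0.77, whereas H2-Oa reached only 0.45 with H2-Ab1. Among 5550 other genes, those most like H2-Ab1 were Cd74 (0.97), Plekho1 (0.91), Ly86 (0.86), Ifi30 (0.85) and 5031439G07Rik (0.84). Those most like H2-DMb2 were Cd74 (0.81), Plekho1, Siglecg, Lrrk2 and Ifi30 (each 0.72). For H2-Oa they were Btla (0.84), Kmo (0.73), Sh3pxd2a (0.70), Kynu (0.66) and Siglecg (0.65), and for H2-Ob Rasgrp3 (0.84), Snx8 (0.72), Lrrk2 (0.72), Cd36 (0.69) and Hepacam2 (0.68). For Ciita they were Lrrk2 (0.76), Ccdc86 (0.75), Cd74 (0.70), Cnn3 (0.69) and Cd36 (0.68).

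Within the monocyte and macrophage gate, class II followed C1qb, a complement gene of tissue macrophages. All 7 members that could be tested were higher in the 800 cells with a C1qb UMI than in the 1457 with Ly6c2, a gene of blood monocytes, and no C1qb, where 30.8% of 6793 tested genes differed. H2-Eb1 was at 1.98 ± 0.27, H2-Ab1 at 1.76 ± 0.24, H2-Aa at 1.71 ± 0.21, H2-DMb2 at 1.49 ± 0.26, H2-DMb1 at 1.23 ± 0.15, Ciita at 1.16 ± 0.22 and H2-DMa at 0.76 ± 0.09. Their median was 1.49, against 0.01 over all tested genes. H2-Oa and H2-Ob were too low for the test. H2-Ab1 had a median of 4315 CPM (2491 to 5023) with C1qb and 1265 CPM (599 to 2690) without, and Ciita had 84.0 CPM (59.2 to 107) and 41.7 CPM (13.9 to 71.0), so that both overlapped between the groups of arms. H2-DM took the smaller part of the class II sum where C1qb was found, with 8.79 UMIs per 100 class II UMIs (7.49 to 10.7) against 16.3 (9.96 to 20.6). Cd74 was higher at 1.46 ± 0.18, Ctss at 0.45 ± 0.06 and Ifi30 at 0.32 ± 0.07. All 4 neutrophil markers were detected in both groups and summed to 1268 CPM in the cells without C1qb and 77.3 CPM in those with it, led by S100a8 at 632 and 35.9 CPM. Without the long anti-PD-1/anti-MIF arm, where these markers were highest in the monocyte and macrophage gate, 7 members were called. The short anti-MIF and long isotype arms, with 1301 and 601 CPM of these markers in that gate, stayed in. The part of these markers in the result was not tested.

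The treatments were compared in monocytes and macrophages, the gate with the most cells. The summed class II chains were at 5444 CPM in the isotype arm, 6209 in anti-PD-1, 14141 in anti-MIF and 9334 in anti-PD-1/anti-MIF of the long cohort. In the short cohort they were at 6021, 6731, 3944 and 7085 CPM. The long anti-MIF arm was thus the highest of all 8 and the short anti-MIF arm the lowest. The 4 neutrophil markers of this gate summed to 601, 109, 51.8 and 7478 CPM in the long arms and to 306, 92.6, 1301 and 100.4 CPM in the short ones, in the same order, so that the long anti-PD-1/anti-MIF arm and the short anti-MIF arm stood apart. Their part in the result was not tested. C1qb moved with the class II sums in the long cohort: the share of the gate with a C1qb UMI was 26.1%, 36.9%, 71.9% and 49.6% in that order, against 29.4%, 23.4%, 27.8% and 19.1% in the short cohort. These shares come from cells that were not thinned. The gate's median UMIs per cell were 9010, 8950, 12684 and 10655 in the long arms and 7982.5, 6757, 8131 and 6579 in the short ones. The arm with the highest share was thus also the deepest, and the part of depth was not tested. The sum for C1qb-positive cells alone was 13655, 9764, 15636 and 14009 CPM in the long cohort and 14184, 14644, 7579 and 14885 CPM in the short.

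Per cell, the median UMIs of the 3 class II chains per 10000 UMIs was 1.94 in the long isotype arm and 104.9 in the long anti-MIF arm, with upper quartiles of 59.3 and 210.5. In the short cohort the medians were 1.51 in isotype and 2.54 in anti-MIF, and the upper quartiles 56.3 and 45.8. Of the remaining arms, long anti-PD-1/anti-MIF had a median of 44.5, and the other 3 had medians between 5.53 and 13.2.

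**Figure D5:**
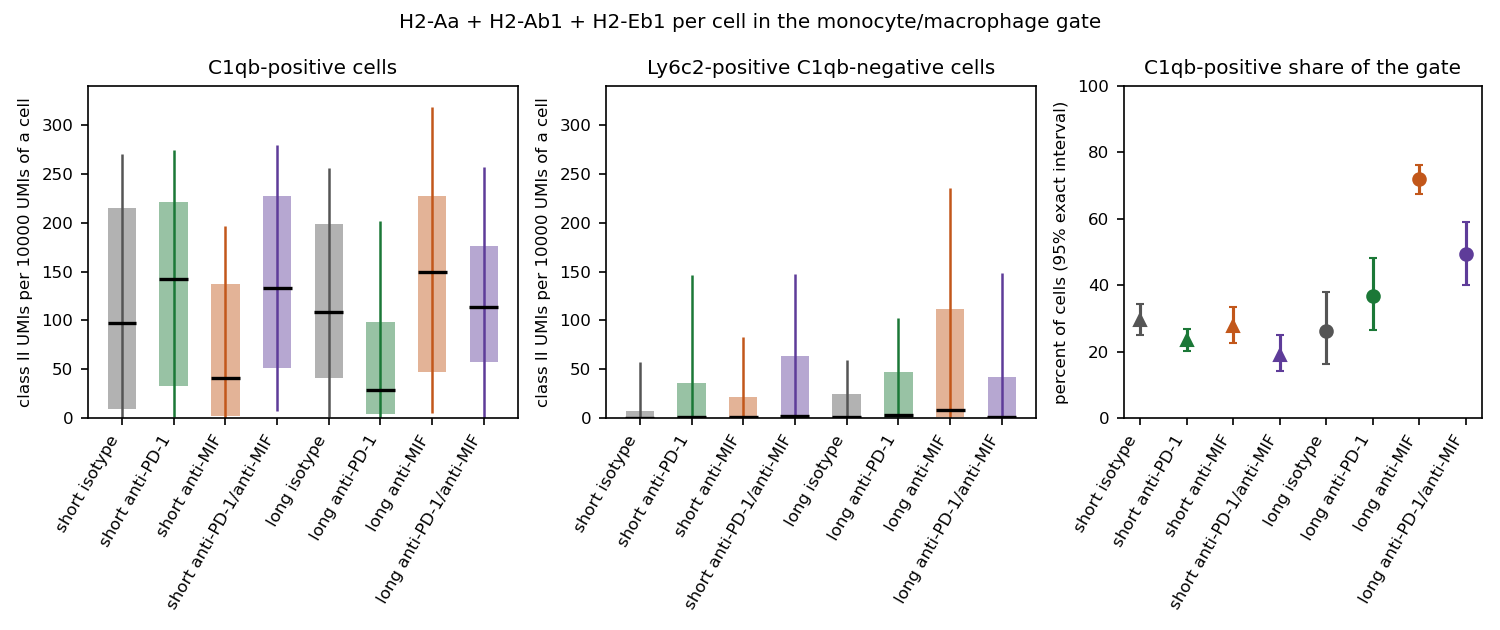
UMIs of the 3 class II chains per 10000 UMIs of a cell, by arm, in C1qb-positive cells (left) and Ly6c2-positive C1qb-negative cells (middle), with the median as a black line, the quartiles as a box and the outer deciles as a line, and the C1qb-positive share of the gate with its 95% exact interval (right). The medians lie between 28.7 and 149.3 in C1qb-positive cells and at or below 8.49 in the others, and the long anti-MIF arm has the highest C1qb-positive share (71.9%). The shares are not adjusted for depth.

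No member was called for anti-MIF (both anti-MIF arms of each cohort against both arms without it, 4 against 4 arms) or for anti-PD-1, and 0% of the 9267 tested genes were called in either comparison. Without adjustment 596 genes had p below 0.05 for anti-MIF and 443 for anti-PD-1, none of them a member for anti-MIF and 1, Ciita, for anti-PD-1. With DESeq2, 2 genes were called for anti-MIF and 1 for anti-PD-1. H2-Ab1 stood at 1549 and 1886 CPM in the long arms without anti-MIF and at 4099 and 2764 with it, and at 2007 and 2306 in the short arms without it and 1315 and 2335 with it. Its log2 fold change was 0.33 ± 0.33 (adjusted p = 0.896). Its direction rested on the long anti-MIF arm, without which H2-Ab1 was at -0.023, and it was -0.079 in C1qb-positive cells alone. It was 0.35 without the long anti-PD-1/anti-MIF arm and 0.62 without the short anti-MIF arm. No member was called with any arm left out, and over all genes 2 were called higher and 1 lower without the long anti-MIF arm, 2 higher without the short anti-PD-1/anti-MIF arm and none without any other. Ciita for anti-PD-1 was at 0.45 ± 0.17 (adjusted p = 0.964). The medians over the members were 0.22 and 0.14, against 0.01 and -0.00018 over all tested genes.

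The anti-MIF difference of the class II chains was larger in the long cohort than in the short one, but not past the threshold. For that difference 0.162% of tested genes were called and no member was. H2-Ab1 was at 1.32 ± 0.37 (adjusted p = 0.288). An unadjusted p below 0.05 was found for 5 members, and for 965 of all 9267 tested genes (10.4%). Their median was 1.197, against 0.01 over all tested genes. Without the long anti-PD-1/anti-MIF arm, which leaves the long anti-MIF arm alone on its side, 5 members were called among 66 higher and 121 lower of 10208 genes, and with no filter on low counts 4 were, among 135 higher and 85 lower of 17741, where 11 and 4 of 9267 had been called. Ifng, the inducer of Ciita, stood in T cells at 315, 457, 254 and 799 CPM in the long arms (isotype, anti-PD-1, anti-MIF, then both antibodies) and at 103, 275, 151 and 73.4 CPM in the short arms. Its part in these values was not tested.

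Long and short cohorts differed in 2 members, both H2-DM beta chains, where 6.32% of tested genes differed. H2-DMb2 was at 20.6, 39.5, 54.8 and 30.2 CPM in the long arms (in the same order) and at 11.9, 10.2, 12.1 and 10.5 CPM in the short ones, with no overlap. The log2 fold change was 1.70 ± 0.26 (adjusted p = 0.0085). H2-DMb1 was at 331, 409, 686 and 533 CPM in the long arms and at 250, 285, 203 and 307 CPM in the short ones, also with no overlap, at 0.86 ± 0.20 (adjusted p = 0.037). H2-DMa, whose product pairs with both, was at 0.08 ± 0.16. The members' median was 0.60, against 0.01. Of the partners, Lgmn, an endosomal protease, was higher in the long cohort at 0.62 ± 0.16 (adjusted p = 0.0497) and Jak2, a kinase of the interferon-gamma receptor, lower at -0.66 ± 0.17 (adjusted p = 0.044). Leaving out the long anti-PD-1, short anti-MIF or short anti-PD-1/anti-MIF arm left 0 members called, with H2-DMb2 at 1.52, 1.62 and 1.63 and H2-DMb1 at 0.95, 0.65 and 0.84. The calls over all genes then came to 11, 19 and 10 higher and 25, 34 and 14 lower, against 241 and 345. H2-DMb1 also lost its call without the long anti-MIF, long anti-PD-1/anti-MIF or short anti-PD-1 arm (adjusted p = 0.056, 0.072 and 0.067), with a stricter HTODemux quantile (0.83, adjusted p = 0.054) and in C1qb-positive cells alone (0.46, adjusted p = 0.246). H2-DMb2 lost its call after thinning (1.63, adjusted p = 0.065) and in Ly6c2-positive C1qb-negative cells alone (1.72, adjusted p = 0.068). C1qb-positive cells made 26.1 to 71.9% of the gate in the long arms and 19.1 to 29.4% in the short ones, shares not adjusted for depth. The part of C1qb-positive cells in the result was not tested beyond these values.

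In mature DC 5 members could be tested for anti-MIF, and none passed, with 0% of 1661 tested genes called, 46 at an unadjusted p below 0.05 and none called with DESeq2. Over all genes, thinning gave 1 higher and 2 lower of 372. There was 1 higher of 12293 with no filter on low counts and 1 higher of 1338 without the short isotype arm. H2-Ab1 had 697 and 1059 CPM in the long arms without anti-MIF and 463 and 2899 with it, and 683 and 1243 in the short arms without it and 2127 and 1906 with it. Over the tested members the median was 0.70, against 0.02 over all tested genes. The arms held between 5 and 62 mature DC, and the size of difference that could have been detected was not measured.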

How the data were processed

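The 2 gene expression and 2 hashtag libraries (Chromium 5′) were made by the authors with Cell Ranger 7.1.0 on mm10, per the labels. The values used are the deposited UMI counts, not normalized. The members, gene lists and tests were chosen with earlier results of these data known. Hashtags were called with HTODemux (Seurat 5.3.0, quantile 0.99), doublets and negatives removed, and cells with 200 to 5000 genes and under 5% mitochondrial UMIs kept, as the study's methods state. An additional hashtag that the labels do not name was left out. UMIs were summed per arm and gate (at least 5 cells) and fitted with edgeR 4.0.16 (quasi-likelihood, robust, TMM, filterByExpr), with Benjamini-Hochberg adjustment over all tested genes. The SE is the absolute log2 fold change over the square root of F. Lineage fits had the arm as a block, and treatment fits had cohort, anti-PD-1 and anti-MIF as terms. Ratios were compared over arms by exact two-sided sign-flip permutation tests. Fits were tested on simulated data. All 9 members were named, and partners by a fixed list, of which 1 gene is not reported here. Alternatives included DESeq2 1.42.0, other gates, filters and arms left out. Promoters were from RefSeq, and positions from GENCODE vM21.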

Additional observations from a re-analysis of the deposited data

Results flagged for a closer look

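An additional hashtag, named anti-PD1-MIF-DDT in the matrices and absent from the labels, carried cells with class II RNA in both cohorts. In the long cohort its 186 monocytes and macrophages had H2-Aa at 2518 CPM against 2276 in the isotype arm, H2-Ab1 at 1897 against 1549 and H2-Eb1 at 1873 against 1618. These cells enter the report only as an alternative to its comparisons, and all 3 chains lay above the control arm of that cohort. In the short cohort the order was the opposite: its 556 monocytes and macrophages had H2-Aa at 1697 CPM against 2168 in the isotype arm, H2-Ab1 at 1532 against 2007 and H2-Eb1 at 1215 against 1847. In the long cohort H2-Ab1 was about at the level of the long anti-PD-1 arm (1886 CPM) and below the anti-MIF (4099 CPM) and anti-PD-1/anti-MIF (2764 CPM) arms. No difference was tested, with 1 sample on each side.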

How the results depend on the processing

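Leaving out arms aside, of the alternatives to the counts of called members 247 stayed within 1.5 times and 15 did not, of those to ratios 60 kept their side of the threshold and 4 crossed it, and of those to single genes 791 kept direction and side of the threshold, 57 lost the call, 1 gained it and 2 reversed. With 1 arm left out at a time, 182 counts stayed within 1.5 times and 10 did not, all 80 ratios kept their side, and of the single genes 551 kept direction and side, 39 lost the call, 1 gained it and 1 reversed. Members higher in mature DC than in monocytes and macrophages, counting the descriptions of H2-Oa and H2-Ob, fell from 3 to 1 with sums of at least 10 cells and to 1 with only the compared lineages in the fit. Members lower in pDC fell from 5 to 3 with DESeq2, 2 with RLE, 1 after thinning, 0 with sums of at least 10 cells and ranged from 3 to 5 over arms left out. The 1 member lower in B cells became 0 with cells in every gate they met, thinning, DESeq2 or RLE, and 0 to 1 over arms left out. The 2 members higher in the long cohort became 1 with a stricter HTODemux quantile, 1 after thinning, 1 in C1qb-positive cells and 1 in Ly6c2-positive C1qb-negative cells, and 0 to 3 over arms left out. The 0 members for the difference of the anti-MIF effect became 4 without a filter and 0 to 5 over arms left out. DESeq2 called 21 genes higher and 15 lower there, against 11 and 4. H2-Ob in mature DC reversed to -0.31 (sums of at least 10 cells), and H2-Ab1 for anti-MIF to -0.079 (C1qb-positive cells), from -0.023 to 0.62 over arms left out, the low value without the long anti-MIF arm. The cDC1 ratios passed the threshold with cells in every gate they met (H2-DMb2 share 11.7 points, H2-O ratio 3.15, each adjusted p = 0.039) and with the additional hashtag (14 points and 3.26, each adjusted p = 0.0195). In the other direction, the H2-DMb2 share difference was 7.61 points with a Lyz2 floor of 1 UMI (higher in 5 of 6 arms) and 12.2 points after thinning (3 of 4 arms). RLE raised the median of all genes by over 0.1 in mature DC, pDC and B cells, and in B cells DESeq2 called 891 genes higher and 760 lower. In pDC DESeq2 called 1250 and 971. Without the arm block no count of called members between gates moved by over 1.5 times. Beyond the arms, no paired analysis was possible because each group in the labels has a single replicate. The causes were not tested.

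Depth limits the small gates: B cells rest on 3 arms and pDC on 53 cells, and H2-O, H2-DMb2 and Ciita there on few UMIs each. Cohort and library cannot be told apart, and each arm is 1 sample.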

Other observations

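Cells that met no gate, 1520 in all, were also rich in class II RNA, with a median of 3481 CPM of H2-Aa over the 8 arms (2310 to 6577) and 2819 CPM of H2-Ab1 (1917 to 4955). Their identity was not assigned here. NK cell markers summed to 1078 CPM and neutrophil markers to 2254 CPM among them.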
